A study of Mus musculus with 12 samples.

Results

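The miR-30 family was followed in small RNAs that came down with the Argonaute protein AGO2 in mouse embryonic stem cells. Its members were the 10 entries of the deposited miRNA table named miR-30 with a letter from a to e, out of 689 entries in all. They comprised 5 unstarred arms (mmu-miR-30a, mmu-miR-30b, mmu-miR-30c, mmu-miR-30d and mmu-miR-30e, written without the species prefix from here on) and 5 star arms (miR-30a*, miR-30b*, miR-30c-1*, miR-30c-2* and miR-30e*), and a star entry of miR-30d was not analysed here. The 4 groups, each of 3 libraries, were the nuclear fraction with doxycycline, the total fraction with doxycycline, the nuclear fraction without it and the total fraction without it. All cells carried the doxycycline-inducible HA-Flag-AGO2, and all pull-downs used the ANTI-FLAG M2 antibody. Induction was with 2.5 ug/ml doxycycline for 15 h. The label "Total" and a protocol that speaks of a cytoplasmic fraction do not settle whether that fraction held nuclei. The endogenous AGO2 of these cells carries no tag, and whether the line is 1 clone is not given in the sources used here.

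A miRNA hairpin is cut by Drosha and Dicer into a short duplex of both arms. One arm, the guide, is usually kept by Argonaute, while the other, written with a star in older names, is usually discarded. The guide finds target RNAs mainly through its seed, bases 2 to 8. The unstarred arms of the miR-30 family come from the 5′ side of the hairpin, share a seed, and are known as abundant miRNAs of epithelial, heart and kidney cells, where targets such as Snai1 and the autophagy gene Beclin 1 have been described.

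Mature sequences were found in RefSeq (GRCm38.p6) for 7 of the 10 members. The 3 unstarred ones among them are shown because 1 shared seed, in capitals, places them in a single target class, and all begin with U.
miR-30a: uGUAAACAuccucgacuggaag
miR-30c: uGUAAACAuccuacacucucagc
miR-30e: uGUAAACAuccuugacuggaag
miR-30a and miR-30e differ by 1 base, C13U, counted from 1 at the 5′ end with the base of miR-30a first. Of 1679 mature mouse sequences in the RefSeq table, which lacks miR-30b and miR-30d, 4 (0.238%) carry the seed GUAAACA. The only one of them outside the miR-30 family is miR-384-5p, which had mean counts of 0.667 in the nuclear fraction and 0 in the total one with doxycycline, and of 0 and 0.667 without it.

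The 4 star arms with a RefSeq sequence do not share that seed. These 4 begin with C and fall into 2 seed classes, with capitals again at bases 2 to 8.
miR-30a*: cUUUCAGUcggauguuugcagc
miR-30e*: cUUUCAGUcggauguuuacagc
miR-30c-1*: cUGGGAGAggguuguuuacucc
miR-30c-2*: cUGGGAGAaggcuguuuacucu
miR-30a* and miR-30e* differ by 1 base (G18A, the base of miR-30a* first), and miR-30c-1* and miR-30c-2* by 3 (G9A, U12C and C22U, the base of miR-30c-1* first). The hexamer AGUGUU, known from human miR-29b as an element of nuclear import, was searched on the given strand and is in none of these 7 sequences. It is in 12 of the 1679 mature sequences (0.715%).

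The hairpins lie in 3 pairs on GRCm38, the assembly also called mm10. Mir30a (chr1:23272269-23272339, between annotated genes) and Mir30c-2 (chr1:23291701-23291784, overlapping an exon of the lincRNA gene Gm27028) are 19361 bases apart. Mir30b (chr15:68337415-68337510, in an exon of the transcript Gm26621) and Mir30d (chr15:68341208-68341289, in exons of Gm20732 and Gm37296) are 3697 bases apart. Mir30c-1 (chr4:120769534-120769622) and Mir30e (chr4:120772606-120772697) are 2983 bases apart, both on the minus strand in an intron of Nfyc, which encodes a subunit of the transcription factor NF-Y. The mature miR-30c of Mir30c-1 and of Mir30c-2 is identical, so its reads cannot be assigned to a locus, while the star arms of those hairpins can be told apart. RefSeq also places Mir30f on the opposite strand of the Mir30e hairpin, and since the strand setting of the authors' counting is not given in the sources used here, its reads cannot be told apart from those of miR-30e and miR-30e*. The Mir30e hairpin, whose arms were the most read members of both kinds, shows where both arms sit, in capitals, the unstarred arm first.
Mir30e: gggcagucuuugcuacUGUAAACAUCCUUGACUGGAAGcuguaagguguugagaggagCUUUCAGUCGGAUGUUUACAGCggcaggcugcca

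The table gives 1 column per group, the authors' mean count per library, so no spread over the 3 libraries and no test over replicates was available, and all errors below are 95% intervals for counting error only. The column totals of the mean counts were highest at 539627 in the total fraction with doxycycline and lowest at 16053 in the total fraction without it. A count of 0 allowed up to 2.50 CPM (reads scaled to the column total) in the nuclear fraction with doxycycline and up to 62.3 CPM in the total fraction without it. The labelled cell type was checked with 12 miRNAs of the miR-290-295 and miR-302 to miR-367 clusters, which are the typical clusters of mouse embryonic stem cells. All 12 had reads in every group, and their arms held 65.8% and 68.9% of nuclear and total reads with doxycycline, and 14.3% and 32.3% without it. The part of this difference in the results that follow was not tested. The markers of fibroblasts, nerve, blood, and muscle and liver cells each held between 0.0120% and 1.38% of reads in any group, with miR-214 in the total fraction without doxycycline as the 1 marker at 0. Those of muscle and liver held 0.0128% and 0.0120% of nuclear and total reads with doxycycline, and 0.701% and 0.483% without it. The other lists lay between 0.443% and 1.38% in all groups. In material from whole cultures, fewer cells of a type and less RNA per cell cannot be told apart.

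With doxycycline, the family held 1.00% of nuclear miRNA reads (Wilson interval 0.986 to 1.02) and 0.958% of total ones (0.943 to 0.973). Without it, the share was 0.744% of nuclear reads (0.695 to 0.797) and 3.57% of total ones (3.41 to 3.74). In the column of the nuclear fraction without doxycycline, 63.7% of the reads belonged to miR-805 alone, and with that entry left out the family's shares were 1.04%, 0.966%, 2.05% and 5.35% in the same order of groups. The make-up of these sums differed between the columns. The unstarred arms made up 93.2% of the family's reads in the nuclear fraction and 82.8% in the total one with doxycycline, but 28.9% and 21.9% without it.

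miR-30e was the most read member, at mean counts of 1877 in the nuclear fraction and 2417 in the total one with doxycycline, and 53.0 and 92.8 without it. It ranked 24 and 25 among all 689 entries in the nuclear and the total fraction with doxycycline. Its level was 3.15 to 5.70 times that of each other unstarred arm in those columns, and counts were not divided by length because the mature sequences span 22 or 23 bases.

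In the nuclear fraction with doxycycline the order after miR-30e was miR-30c at 1488 CPM (1420 to 1558), miR-30b at 1297 (1234 to 1363), miR-30a at 946 (892 to 1003) and miR-30d at 941 (887 to 998). The counting intervals of miR-30a and miR-30d overlapped, and the other neighbours in that order were apart. In the total fraction with doxycycline miR-30a at 929 CPM (883 to 977) and miR-30c at 907 (861 to 954) were within their intervals of each other, as were miR-30d at 832 (789 to 878) and miR-30b at 786 (743 to 830). miR-30b and miR-30c therefore stood above miR-30a in the nuclear column but not in the total column.

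For miR-30a the mean counts were 379 (nuclear) and 501 (total) with doxycycline, and 8.00 (nuclear) and 10.8 (total) without it. For miR-30b they were 520 (nuclear) and 424 (total) with doxycycline, and 6.33 (nuclear) and 8.67 (total) without it. For miR-30c they were 596 (nuclear) and 489 (total) with doxycycline, and 5.67 (nuclear) and 7.0 (total) without it. These arms were thus well read with doxycycline and had few reads without it. miR-30d had 377 (nuclear) and 449 (total) with doxycycline, and 5.00 (nuclear) and 6.33 (total) without it. Every unstarred arm thus had more reads with doxycycline than without it in both fractions. So did most entries that reached a mean of 10 in either column. Only 41 of 371 such entries in the nuclear fraction and 12 of 359 in the total one had fewer reads with doxycycline. The column totals were 11.0 (nuclear) and 33.6 (total) times as high with doxycycline.

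Among the star arms miR-30e* was the most read, with mean counts of 151 in the nuclear fraction and 537 in the total one with doxycycline, and 103 and 293 without it. In the total fraction with doxycycline, at 994 CPM (947 to 1044), miR-30e* stood above the unstarred miR-30b and miR-30d. Its interval overlapped those of miR-30a and miR-30c, whose counts were lower. In the total fraction without doxycycline miR-30e* ranked 10 among all entries, with 1.82% of reads (1.71 to 1.95). miR-30a* had 69.3 and 163 with doxycycline, and 23.2 and 45.0 without it. miR-30b* had 18.7 and 56.3 with doxycycline, and 40.3 and 56.7 without it. It was the only member whose count was not higher with doxycycline in either fraction. miR-30c-1* had 19 and 81.7 with doxycycline, and 14.3 and 34.0 without it. miR-30c-2* had 14.7 and 49 with doxycycline, and 11.7 and 19.7 without it. Every star arm had fewer reads in the nuclear than in the total column, with and without doxycycline. With doxycycline this was common, at 298 of 378 entries and 60 of 68 star entries that reached a mean of 10 in either column. Without it, 66 of 189 such entries and 20 of 43 star entries had fewer nuclear reads. The nuclear column total was 0.743 times the total one with doxycycline and 2.26 times without it.

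**Figure D1:**
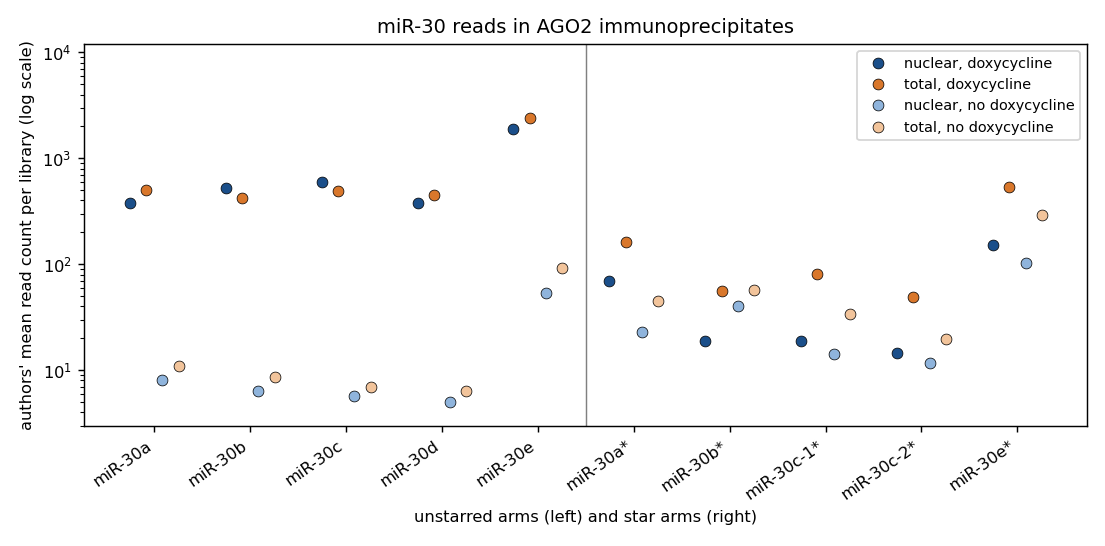
Authors' mean read count per library (log axis) of the 5 unstarred and 5 star miR-30 arms, 1 point per group, with no error bars because the table holds no per-library values. The unstarred arms lie between 377 and 2417 with doxycycline and between 5.00 and 92.8 without it, whereas each star arm with doxycycline lies between 0.463 and 3.63 times its count without it.

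For 7 members, among them all 5 unstarred arms with miR-30a* and miR-30e*, at least 1 group sum (the mean times 3) was not a whole number of reads to within 1e-06. The treatment of reads that match several entries is not given in the sources used here, so the division of reads between miR-30a and miR-30e, or between their star arms, is uncertain. For miR-30b, miR-30c and miR-30d neither column with doxycycline gave a whole sum, so the division of their reads is uncertain too. The sums of miR-30b*, miR-30c-1* and miR-30c-2* were whole in every group.

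Cells with and without doxycycline were compared within each fraction to ask which members came down with the induced AGO2. In reads, the summed unstarred arms had 48.1 times as many (42.2 to 55.0) with doxycycline as without it for nuclear AGO2 and 34.1 times as many (30.7 to 37.8) in the total fraction. The summed star arms had 1.42 times as many (1.27 to 1.58) in the nuclear fraction and 1.98 times as many (1.85 to 2.11) in the total one. All miRNA reads together had 11.0 and 33.6 times as many, ratios to which the sequencing depth of the libraries and the reads of miR-805 also contribute. Put the other way, the reads without doxycycline amounted to 70.7% and 50.5% of those with it for the star arms, but to 2.08% and 2.94% for the unstarred arms. miR-805 alone held 63.7% (nuclear) and 33.3% (total) of reads without doxycycline, against 3.27% and 0.833% with it. With that entry left out, the unstarred arms held 0.967% of nuclear reads with doxycycline and 0.591% without it. In the total fraction they held 0.800% with doxycycline and 1.17% without it.

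Scaled with TMM factors, which set the typical miRNA to no change, the unstarred arms were higher in the nuclear fraction with doxycycline, led by miR-30c at a log2 fold of 2.75 (2.07 to 3.53), miR-30b at 2.39 (1.74 to 3.13) and miR-30d at 2.27 (1.54 to 3.11). miR-30a was at 1.60 (1.02 to 2.25) and miR-30e at 1.18 (0.95 to 1.42). All 5 were thus at least 2-fold higher, which is a size limit with no test behind it, where 30.5% of all 371 tested entries and 36.2% of 307 unstarred entries were. Entries were tested if their mean count reached 10 in either compared column, and in both doxycycline comparisons all 10 members passed, the unstarred arms of all but miR-30e (and, in the total fraction, miR-30a) only through the column with doxycycline. Over all tested entries the median log2 fold was 0.04, and over the 5 unstarred arms it was 2.27.

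On that scale all 5 star arms of the nuclear fraction were lower with doxycycline by 2-fold or more, from miR-30b* at -5.08 (-5.56 to -4.61) to miR-30a* at -2.39 (-2.79 to -1.98), with a median of -3.56. This size was reached downwards by 33.7% of all tested entries and by 70.3% of the 64 tested star entries, whose median was -2.45, so it was common among star strands. The direction holds only relative to the typical miRNA. Without scaling, miR-30b* was lower with doxycycline and the other 4 star arms were higher, the median log2 fold of the 5 being 0.41 against 4.01 for all tested entries.

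In the total fraction miR-30d at 1.14 (0.49 to 1.88) and miR-30c at 1.12 (0.50 to 1.81) were at least 2-fold higher with doxycycline, where 31.8% of 359 tested and 37.2% of 290 unstarred entries were. miR-30b at 0.60 (0.05 to 1.22), miR-30a at 0.52 (0.04 to 1.10) and miR-30e at -0.31 (-0.48 to -0.13) lay within 2-fold, and the sign of miR-30e turned with the scaling. All 5 star arms were at least 2-fold lower, between miR-30b* at -5.02 (-5.33 to -4.70) and miR-30a* at -3.15 (-3.43 to -2.86), as were 32.0% of all tested entries and 73.9% of 69 star entries. Without scaling miR-30b* had about as many reads with doxycycline as without it, at 0.994 times, and the other 4 star arms had more.

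The doxycycline folds of both fractions were set against each other. The log2 fold of the summed unstarred arms was 1.62 in the nuclear fraction and 0.08 in the total one, a difference of 1.54 (1.30 to 1.78, a normal approximation to counting error) that was 0.50 without scaling. For the summed star arms the folds were -3.47 and -4.02, with a difference of 0.56 (0.38 to 0.74) that turned to -0.48 without scaling. By arm, the difference was 0.76 (0.28 to 1.24) for miR-30a* and 0.72 (0.48 to 0.96) for miR-30e*, while the intervals of miR-30b* (-0.06), miR-30c-1* (0.18) and miR-30c-2* (0.05) included 0. The change in star per unstarred reads does not depend on any scaling. It was -5.09 in the nuclear fraction and -4.10 in the total one, which differ by -0.98 (-1.28 to -0.68).

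The share of star reads within each name shows the same contrast without any scaling between libraries. For miR-30e, the star arm held 7.43% (6.80 to 8.12) of the reads of both arms in the nuclear fraction and 18.2% (17.4 to 19.0) in the total one with doxycycline, but 66.0% (61.5 to 70.1) and 76.0% (73.4 to 78.3) without it. For miR-30c, both star entries together held 5.34% (4.42 to 6.45) and 21.1% (19.3 to 23.0) with doxycycline, and 82.1% (73.2 to 88.5) and 88.5% (83.0 to 92.3) without it. For miR-30b the shares were 3.47% (2.68 to 4.47) and 11.7% (10.2 to 13.5) with doxycycline, and 86.4% (79.8 to 91.1) and 86.7% (81.3 to 90.8) without it. miR-30a kept the largest star share with doxycycline, at 15.5% (13.6 to 17.5) and 24.6% (22.7 to 26.5), and had 74.5% (64.8 to 82.2) and 80.8% (74.2 to 86.1) without it. The arm called the star was thus the minor one with doxycycline and the major one without it, for all 4 names in both fractions.

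**Figure D2:**
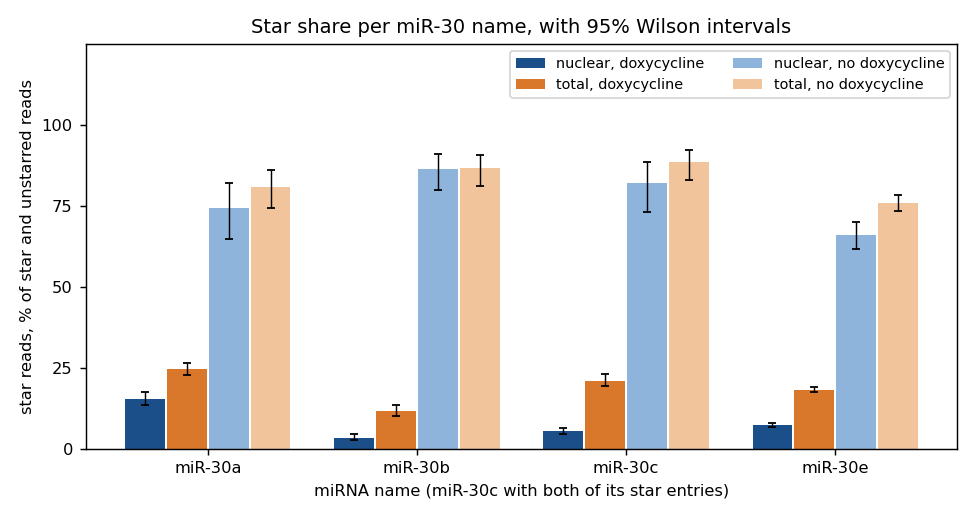
Star reads as a percentage of star and unstarred reads for each miR-30 name (y axis, bars from 0), by group, with 95% Wilson intervals for counting error. Shares lie between 3.47% and 24.6% with doxycycline and between 66.0% and 88.5% without it, and the nuclear bar is below the total bar with doxycycline for every name.

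Other hairpins with both a star and an unstarred entry had a median star share of 4.26% in the nuclear (89 hairpins) and 5.72% in the total fraction (89) of induced cells, against 37.8% (61) and 35.1% (55) in cells without doxycycline. Star entries held the larger share in 22 of those 61 nuclear and 21 of those 55 total hairpins without doxycycline. A lower star share with doxycycline was therefore common. The ratio of star to unstarred reads was at least 2-fold lower with doxycycline in 4 of 4 miR-30 names in each fraction, against 87.1% of 62 hairpins in the nuclear and 84.6% of 65 in the total fraction.

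Next, the nuclear fraction of induced cells was set against the total one. For the summed star arms, the reads without doxycycline amounted to 70.7% (nuclear) and 50.5% (total) of those with it. Their nuclear over total log2 fold was -1.29 with doxycycline and -1.65 without it. Whether the star reads came down with the tagged AGO2 was not tested. Among the star arms, miR-30c-1* was lowest, with a nuclear over total log2 fold at -1.69 (-2.13 to -1.27), followed by miR-30e* at -1.42 (-1.57 to -1.27), miR-30c-2* at -1.33 (-1.85 to -0.83) and miR-30b* at -1.18 (-1.64 to -0.74). miR-30a* was at -0.82 (-1.06 to -0.59). So 4 of 5 star arms and 0 of 5 unstarred arms were at least 2-fold lower, where 3.97% of all 378 tested entries and 14.7% of 68 star entries were. Of the 63 star entries outside the family 6 were (9.52%), and their median was -0.19, against -1.33 for the 5 miR-30 star arms. By rank from the lowest, miR-30c-1*, miR-30e*, miR-30c-2*, miR-30b* and miR-30a* were at 2, 4, 6, 10 and 23 of 378.

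Of the unstarred arms, miR-30b at 0.71 (0.60 to 0.82) and miR-30c at 0.70 (0.60 to 0.80) were higher in the nuclear fraction by less than 2-fold, and both stayed above 0 under every scaling tried. miR-30e at 0.05 (-0.00 to 0.10) and miR-30a at 0.01 (-0.10 to 0.12) had intervals that included no change, and miR-30d was at 0.16 (0.05 to 0.28). The sign of these 3 depended on the scaling. Without scaling miR-30a was at -0.40, miR-30e at -0.36 and miR-30d at -0.25, and when entries with a mean count from 1 set the scaling they were at -0.19, -0.16 and -0.04. At least 2-fold higher were 0 of 10 members and 10.3% of all tested entries. Without scaling 44 entries were lower and 28 higher, against 15 and 39, and the median over all tested entries shifted to -0.46, against -0.04.

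**Figure D3:**
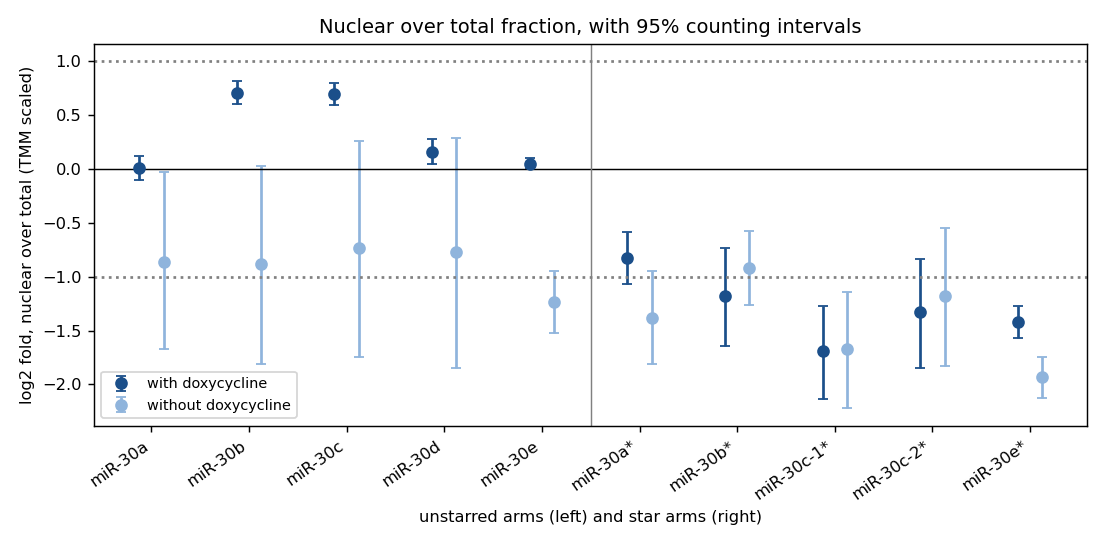
Log2 fold of nuclear over total (TMM scaled) for each miR-30 arm, with doxycycline (dark) and without (light), bars being 95% Clopper-Pearson counting intervals and dotted lines marking 2-fold. With doxycycline the star arms lie between -1.69 and -0.82 and the unstarred arms between 0.01 and 0.71. Without it all 10 arms are below 0, but the intervals of miR-30b, miR-30c and miR-30d include 0.

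The ratio of arms within a name is free of scaling. Star per unstarred reads were lower in the nuclear than in the total fraction with doxycycline by a log2 change of -2.24 (-2.59 to -1.91) for miR-30c, -1.89 (-2.36 to -1.43) for miR-30b, -1.47 (-1.63 to -1.31) for miR-30e and -0.83 (-1.10 to -0.57) for miR-30a. These changes ranked 2, 4, 8 and 13 from the lowest among 66 hairpins. They were at least 2-fold for 3 of 4 miR-30 names, against 15.2% of all 66 hairpins and 7 of the 62 others, whose median was -0.11. For the whole family the change was -1.51 (-1.63 to -1.39), and -1.94 with the reads without doxycycline subtracted from each column, when miR-30b* had no reads left in either fraction. The subtraction used unscaled mean counts, though the column totals differed 11.0-fold (nuclear) and 33.6-fold (total). It takes a read to mean the same with and without doxycycline, which was not tested.

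**Figure D4:**
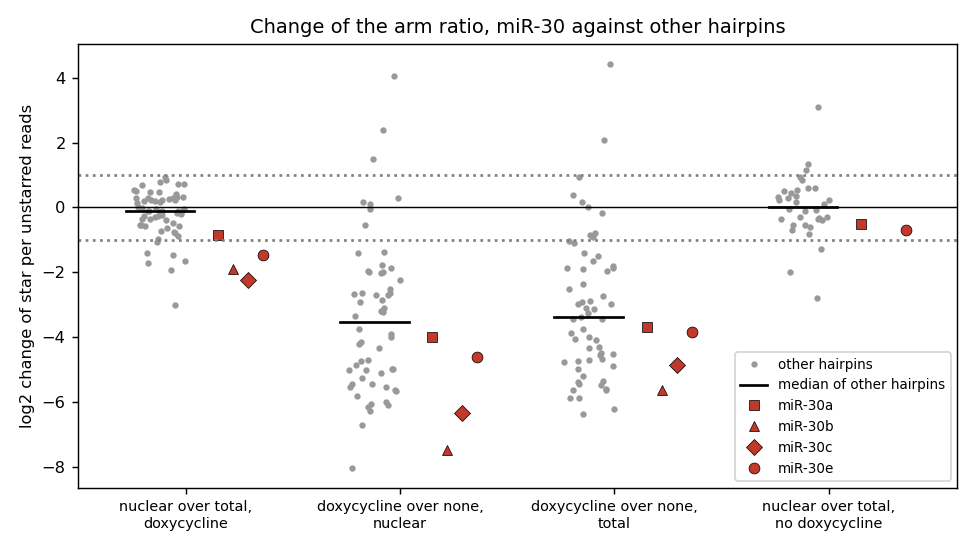
Log2 change of star per unstarred reads for the miR-30 names (red) and for each other hairpin (grey points, placed sideways at random, with their median as a black line) in 4 comparisons, dotted lines marking 2-fold. Between the fractions with doxycycline the miR-30 names lie between -2.24 and -0.83 and the other hairpins centre on -0.11, while against no doxycycline most other hairpins are also far below 0.

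The reads present without induction were compared between fractions in the same way. All 5 star arms and 2 of 5 unstarred arms, miR-30a and miR-30e, reached the minimum count. miR-30e* had a nuclear over total log2 fold at -1.93 (-2.13 to -1.75), miR-30c-1* at -1.67 (-2.22 to -1.14), miR-30a* at -1.38 (-1.81 to -0.95), miR-30c-2* at -1.18 (-1.83 to -0.55) and miR-30b* at -0.92 (-1.26 to -0.57). The unstarred miR-30e was at -1.23 (-1.52 to -0.95) and miR-30a at -0.86 (-1.67 to -0.03). At least 2-fold lower were thus 4 star arms and miR-30e, against 16.9% of 189 tested entries and 25.6% of 43 star entries. These counts moved with the scaling. By library totals all 5 star and all 5 unstarred arms, 3 of which were under the minimum count, were at least 2-fold lower, as were 76 of 188 entries above 0 in both columns. Without scaling 2 star arms and 0 unstarred arms were, as were 15 of those 188. The library totals include miR-805, at 63.7% of the nuclear and 33.3% of the total column. With it left out, the unstarred arms held 0.591% of nuclear and 1.17% of total reads, and the star arms 1.46% and 4.18%. None of the 7 was at least 2-fold higher, where 23.8% of tested entries were.

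The lower nuclear level without doxycycline covered the star arms and the unstarred miR-30e and miR-30a. The intervals of miR-30b, miR-30c and miR-30d, which were under the minimum count, included no change. The arm ratio moved less than with doxycycline. Star per unstarred reads changed by -0.70 (-1.05 to -0.36) for miR-30e and by -0.52 (-1.46 to 0.41) for miR-30a, which is less than 2-fold, as for all but 8.33% of 36 hairpins that were lower and 8.33% that were higher. For the whole family the change was -0.53 (-0.81 to -0.25). The comparisons of fractions with and without doxycycline and of doxycycline within fractions use the same 4 columns, so they are not independent of each other.

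By distance between centred log2 CPM profiles over the 4 columns, among 326 entries outside the family with a mean count from 1 in each, the entries most like the mean unstarred miR-30 profile were miR-292-3p (0.27), miR-411 (0.29), miR-200a (0.30) and miR-434-3p (0.31). The unstarred members themselves lay 0.32 to 0.94 from that mean, with miR-30e farthest. Nearest to the star profile were miR-20a* (0.22), miR-186* (0.49), miR-16* (0.63) and miR-671-3p (0.63), the star members lying at 0.21 to 1.32. miR-20a*, the star strand of a miR-17-92 member, had mean counts of 44.0 in the nuclear fraction and 136 in the total one with doxycycline, and 40.3 and 74.0 without it. A distance over 4 columns is a description of these columns.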

How the data were processed

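Per the labels' protocols, AGO2 was immunoprecipitated from fractions of mouse embryonic stem cells, and RNA was ligated to adapters, reverse transcribed and amplified by PCR. The authors deposited estimated counts (expected counts), 1 mean per entry and group and not scaled, for 12 libraries in 4 groups. The labels give 3 libraries per group, and 78.4% to 91.4% of values, by column, became whole when multiplied by 3, from which averaging was inferred. TopHat, the build mm10 and bcl2fastq (2.17.1) are named, per the submitters' processing notes, and the counting step is not given in the sources used here.

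Replicate tests with edgeR or DESeq2 were not run, since single-library counts are needed. Log2 folds used TMM factors (edgeR 4.0.16, R 4.3.3) from entries whose mean count reached 10 in either compared column, with 95% Clopper-Pearson intervals on the reads over the group (mean times 3, rounded to whole reads). Arm ratios had conditional exact 95% intervals, shares Wilson intervals and CPM exact Poisson intervals. PCR reads without molecular identifiers are not independent molecules, so intervals and floors (3 reads over the group) cover counting error only. A fold of 2 was a rule of size. Calculations used SciPy 1.17.1, pandas 2.3.3 and numpy 2.4.6 under Python 3.11.15, with plots by matplotlib 3.10.9, and were tested on simulated counts.

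Members and lists were chosen with earlier results of these data known. Named were all members, entries with a member's seed, and the 4 entries nearest each arm profile.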

Additional observations from a re-analysis of the deposited data

How the results depend on the processing

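Values are log2 folds, and 8 summed folds and 40 folds of single arms were recomputed under each scaling. The family's directions between fractions held for the star arms under all of them, and the directions that turned are given here; beyond the construction of each scaling the cause was not tested. Without scaling, the summed unstarred arms turned to -0.19 between fractions with doxycycline and moved to 5.59 (nuclear) and 5.09 (total) with over without doxycycline and -0.69 between fractions without it, while the summed star arms were at -1.70, 0.50 and 0.99 (both turned) and -1.22 in that order. Single arms that turned without scaling were miR-30a (-0.40), miR-30e (-0.36) and miR-30d (-0.25) between fractions with doxycycline, and with over without doxycycline miR-30e in the total fraction (4.70), miR-30a* (1.58 nuclear, 1.86 total), miR-30c-1* (0.41, 1.26), miR-30c-2* (0.33, 1.32) and miR-30e* (0.55, 0.87). By library totals, the unstarred sum was at 2.12 in the nuclear doxycycline comparison and -1.87 between fractions without doxycycline, and the star sum at -2.96 and -2.40. In that last comparison 5 unstarred and 5 star arms were at least 2-fold lower by library totals, with 76 of 188 entries above 0 in both columns, and 0 and 2 were without scaling, with 15 of 188, against 1 and 4, with 32 of 188, by TMM. The median of those entries was at -0.85 by library totals, against -0.10 by TMM. With entries from a mean count of 1 setting the scaling, the unstarred sum was at 0.018 between fractions with doxycycline and at 3.38 (nuclear) and 0.78 (total) with over without it, and the star sum at -1.5, -1.70, -3.33 and, between fractions without doxycycline, -1.87. There miR-30a turned to -0.19, miR-30e to -0.16 and miR-30d to -0.043 between fractions with doxycycline, and miR-30e to 0.39 in the total doxycycline comparison. Median-of-ratios factors gave 0.26 for the unstarred sum between fractions with doxycycline, and all other values stayed within their intervals. The TMM-scaled folds without miR-805 also stayed within them. TMM trims entries with extreme ratios, so that setting could hardly move these folds. Library totals without miR-805 were not tried for the folds. With the reads without doxycycline subtracted as unscaled mean counts, the unstarred sum was at 0.37, the star sum at -1.57 and their ratio at -1.94.

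The difference of doxycycline folds between fractions was 2.10 (unstarred) and 1.12 (star) by library totals, 0.50 and -0.48 (turned) without scaling, and 2.61 and 1.63 with the minimum of 1. Leaving miR-805 out of the totals, chosen after seeing the data, moved the family's share to 1.04%, 2.05% and 5.35% in the nuclear fraction with doxycycline and the nuclear and total fractions without it. Star per unstarred reads with over without doxycycline were at -5.78 (nuclear) and -4.65 (total) without miR-30e and its star arm, and at -6.80 and -5.19 without miR-30a as well, when the change between fractions with doxycycline was -1.97. With a minimum of 1, the other hairpins with a ratio at least 2-fold lower numbered 12 between fractions with doxycycline, 78 with doxycycline in the nuclear fraction and 11 between fractions without it, against 7, 50 and 3.

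No paired analysis was possible because the columns are group means that carry no replicate number, and for the same reason no library was left out. Counts of 5.00 to 10.8 limit the unstarred arms other than miR-30e without doxycycline.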
